A study of Mus musculus with 9 samples.

Results

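The genes described here are 10 genes of fatty acid oxidation, namely the carnitine palmitoyltransferases Cpt1a, Cpt1c and Cpt2, the acyl-CoA dehydrogenases Acadvl, Acadl, Acadm and Acads, the trifunctional protein subunits Hadha and Hadhb, and the peroxisomal transporter Abcd2. They are 10 of 47729 gene identifiers in the deposited tables. The list was drawn up because Acadl and Abcd2 were higher after deletion of the neurotrophin receptor TrkB, so the genes were chosen by their levels in the TrkB-deleted groups against control, which are given as a description that supports nothing. The difference between the TrkB-deleted groups was not named in the choice and was tested. The libraries of these groups did enter the choice, and the genes were listed with earlier results of these data known.

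RNA on polyribosomes of D1 medium spiny neurons, the dorsal striatal neurons that carry the D1 dopamine receptor, was precipitated and sequenced from C57BL/6 mice at postnatal day 28. The study compared mice of the genotype D1-Cre-flTrkB-RT with stereotypy, mice of the same genotype with no stereotypy, and D1-Cre-RT controls, with 3 biological replicates each. Both genotypes carried D1-Cre and the RiboTag (HA), a ribosomal protein that gains a hemagglutinin tag where Cre is active. The TrkB-deleted groups carried in addition the floxed TrkB (flTrkB), and the controls did not. The D1-Cre driver uses the D1 receptor gene, so that tagging and deletion were meant for cells with this receptor. The labels call the cell type enriched, name no batch and do not say whether animals were pooled. Precipitated RNA was sequenced in bulk, so that fewer cells of a type and less RNA per cell cannot be told apart.

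Mitochondria burn fatty acids by cutting the chain in a repeating cycle. Long chains enter after the outer membrane enzyme Cpt1 has linked them to carnitine and the inner membrane enzyme Cpt2 has released them again as acyl-CoA. The acyl-CoA dehydrogenases start each turn, each on its own range of chain lengths, and for long chains the trifunctional protein completes it. Very long chains are shortened in peroxisomes, into which the ABCD transporters carry them. In the brain this oxidation is known mainly from astrocytes, while Cpt1c is a neuronal isoform of the endoplasmic reticulum with little transferase activity.

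The genes lie on several chromosomes (GRCm38, GENCODE M21), and the promoters of 4 of them are described because their levels are set beside each other below. Acadl (ENSMUSG00000026003) is at chr1:66830839-66863277 on the minus strand. Abcd2 (ENSMUSG00000055782) is at chr15:91145871-91191799 on the minus strand. Cpt1a (ENSMUSG00000024900) is at chr19:3322334-3385733 on the plus strand. Hadha (ENSMUSG00000025745) on the minus strand of chr5:30118304-30155162 and Hadhb (ENSMUSG00000059447) on the plus strand of chr5:30155248-30184593 stand head to head, with 86 bases between the gene starts. RefSeq promoter windows on GRCm38.p6, which run from 250 bases before to 50 bases after a gene start as RefSeq places it, matched 9 of the 10 genes, all but Abcd2. The windows are printed below for Acadl at chr1:66863260-66863559 (minus strand), for Cpt1a at chr19:3323051-3323350 (plus strand) and for Hadhb at chr5:30155003-30155302 (plus strand), 5′ to 3′, with matches in capitals. The window of Hadha shares 228 bases with that of Hadhb, read from the other strand.
Acadl: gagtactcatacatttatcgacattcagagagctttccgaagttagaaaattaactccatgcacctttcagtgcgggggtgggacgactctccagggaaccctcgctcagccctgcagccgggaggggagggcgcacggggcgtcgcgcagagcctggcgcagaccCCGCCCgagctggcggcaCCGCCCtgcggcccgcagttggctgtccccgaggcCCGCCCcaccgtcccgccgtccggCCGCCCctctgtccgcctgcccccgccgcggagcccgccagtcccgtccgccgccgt
Cpt1a: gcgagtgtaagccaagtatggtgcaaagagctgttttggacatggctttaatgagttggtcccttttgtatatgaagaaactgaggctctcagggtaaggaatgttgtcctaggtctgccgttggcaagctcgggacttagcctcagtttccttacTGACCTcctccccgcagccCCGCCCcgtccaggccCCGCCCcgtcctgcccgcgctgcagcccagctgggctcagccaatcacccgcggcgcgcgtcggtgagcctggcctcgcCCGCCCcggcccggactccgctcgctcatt
Hadhb: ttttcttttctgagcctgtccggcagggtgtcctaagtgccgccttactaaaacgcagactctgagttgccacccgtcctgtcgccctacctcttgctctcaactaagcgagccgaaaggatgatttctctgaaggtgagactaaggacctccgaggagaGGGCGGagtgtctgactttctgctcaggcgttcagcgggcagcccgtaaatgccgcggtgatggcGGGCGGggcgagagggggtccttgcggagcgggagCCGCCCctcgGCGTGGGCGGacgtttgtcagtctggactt

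The capitals mark 5 motifs searched on both strands, namely AGGTCA (the half-site of nuclear receptors such as the PPARs), GGGCGG (the GC box), TGACGTCA (the cyclic AMP response element), CCGGAAGT (an ETS site) and GCGTGGGCG (an Egr site), of which GGGCGG and GCGTGGGCG can overlap. The GC box stood in 7 of the 9 windows, against 35.7% of all 32851 mouse windows. The only GC box of the Hadha window lies in the bases shared with the Hadhb window, so that this site counts in both. AGGTCA stood in 4 of the 9 windows, namely those of Acadm, Cpt1a, Cpt1c and Acadvl, against 16.3% of all windows. The Acadl window held 4 GC boxes and no match of the other 4 motifs, a G and C content of 70.3% and 34 CpG, where the medians over all windows were 52.7% and 7. The Cpt1a window held 1 AGGTCA and 3 GC boxes. The Hadhb window held 4 GC boxes and the Egr site, which 0.612% of all windows hold. Cpt2 held the ETS site (3.89% of all windows), and no window held the cyclic AMP response element (1.79% of all windows).

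The libraries held 27103152 to 40578512 reads. Ntrk2, which encodes TrkB, was at 39.6 ± 4.85 CPM in stereotypy libraries, 18.9 ± 4.67 CPM in no stereotypy libraries and 397 ± 84.8 CPM in controls (SD, n = 3 each). The summed CPM of 6 D1 neuron markers was 2060 to 2138 in stereotypy, 1364 to 1741 in no stereotypy and 1483 to 2220 in control libraries, and that of 5 D2 neuron markers was 259 to 424, 597 to 1050 and 443 to 1433 CPM in the same order; no D1 marker was under 1 CPM in all libraries of a group. The summed CPM of 12 astrocyte markers was 747 to 767 in stereotypy, 491 to 599 in no stereotypy and 509 to 592 in control libraries. Of 13695 genes tested, 905 were higher and 493 lower in stereotypy than in no stereotypy libraries (limma, Benjamini-Hochberg adjusted p under 0.05). With libraries rescaled by the median of ratios the split was 687 to 694. The split in stereotypy against control was 490 higher to 209 lower and became 334 to 361, and that of both TrkB-deleted groups against control was 503 to 281 and became 384 to 365. Without stereotypy replicate 1 the difference between the TrkB-deleted groups gave 806 calls, without stereotypy replicate 2 it gave 1, and it gave 0 without stereotypy replicate 3 and without replicate 1 or 2 of no stereotypy.

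Acadl, the long-chain acyl-CoA dehydrogenase, had the largest ratio to control among the 10 genes. Its level was 12.2, 12.8 and 15.5 CPM in the stereotypy libraries, 10, 8.09 and 8.72 CPM in the no stereotypy libraries and 2.98, 3.28 and 2.27 CPM in the controls. These levels rest on 341 to 421 reads in stereotypy, 289 to 387 reads in no stereotypy and 74 to 116 reads in control libraries. The 3 groups did not overlap, with stereotypy above no stereotypy and both above control. The means were 13.5 ± 1.77, 8.94 ± 0.972 and 2.84 ± 0.521 CPM in that order (SD, n = 3 each), which put stereotypy at 4.75 times and no stereotypy at 3.14 times the control mean. On the log2(CPM + 1) scale the difference from control was 1.92 (SE 0.16) for stereotypy and 1.38 (SE 0.16) for no stereotypy.

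Between the TrkB-deleted groups, Acadl was 0.54 higher in stereotypy than in no stereotypy libraries on the log2 scale (SE 0.16, 95% interval 0.20 to 0.89), and the adjusted p of 0.0507 in limma lay just above the threshold of 0.05. It lay between 0.0273 and 0.181 over the alternatives and under the threshold in 6 of them, among them DESeq2 on the recovered reads (0.0273), but not edgeR (0.0653). Aldoc, Gfap and Aldh1l1 were not higher in stereotypy than in no stereotypy libraries (means of 31.9 against 33.6, 3.76 against 3.83 and 3.03 against 3.52 CPM). The astrocyte markers taken as a sum moved with the difference in Acadl. Their sums of 747 to 767 CPM in stereotypy libraries did not overlap the 491 to 599 CPM of no stereotypy libraries, 4 of the 12 were past the threshold and higher, none was at 0, and their part in the result was not tested. Vascular marker sums were 41.7 to 98.7 CPM in stereotypy and 12.1 to 28.2 CPM in no stereotypy libraries, with 3 of 9 tested markers past the threshold and higher, and microglial sums were 17.3 to 21.5 and 8.15 to 11.0 CPM, with 2 of 8. The 9 markers of other striatal and cortical neurons summed to 354 to 612 CPM in stereotypy and 855 to 1807 CPM in no stereotypy libraries. The median log2 difference between these groups was 0.48 over the 6 D1 neuron markers, with 1 past the threshold and higher. It was -1.23 over the 5 tested D2 neuron markers, with none past it, and the part of these neuron markers was not tested. Against control, the astrocyte sums of stereotypy libraries did not overlap, at 747 to 767 and 509 to 592 CPM. There 7 of the 12 astrocyte markers were past the threshold and higher, with a median log2 difference of 0.87. Between no stereotypy and control libraries the astrocyte sums overlapped at 491 to 599 and 509 to 592 CPM. The astrocyte markers with the highest levels, Slc4a4 and Slc1a2, averaged 253 and 176 CPM in no stereotypy and 275 and 187 CPM in control libraries. In that comparison 1 of the 12 astrocyte markers was past the threshold and higher, and their median log2 difference was 0.30. The 9 oligodendrocyte markers summed to 1192 to 2131 CPM in stereotypy, 763 to 1723 CPM in no stereotypy and 583 to 1200 CPM in control libraries, with a median log2 difference from control of 0.61 for stereotypy and 0.49 for no stereotypy and 0 of the 9 past the threshold, and the part of either marker list in the levels against control was not tested.

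**Figure D1:**
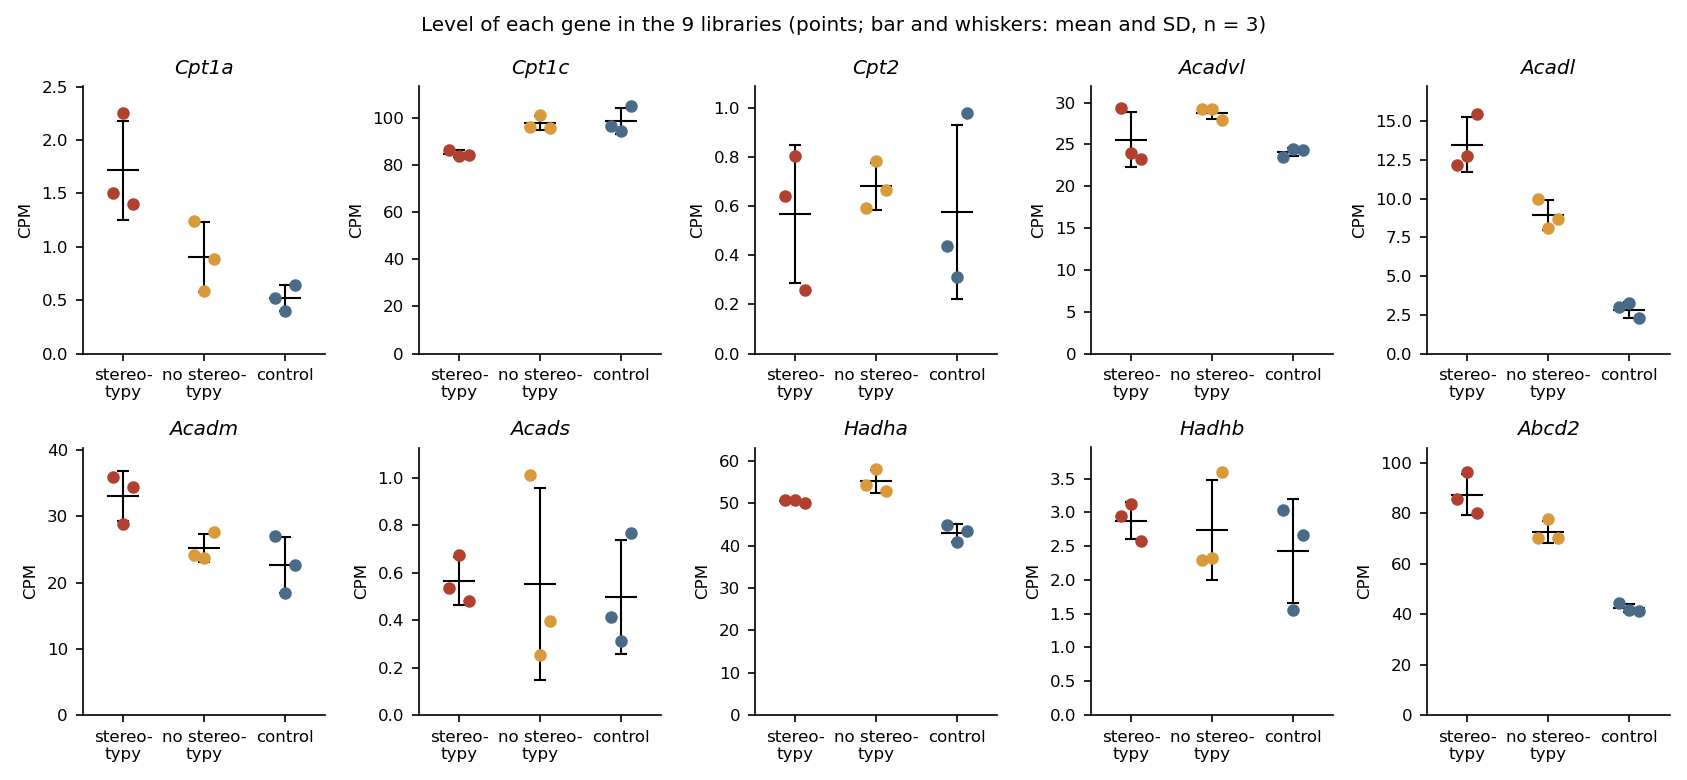
Level of the 10 genes in CPM (vertical axes, each starting at 0) in stereotypy, no stereotypy and control libraries, with 1 point per library and the mean and SD of 3 libraries as bar and whiskers. The 3 groups of Acadl, of Abcd2 and of Hadha do not overlap, with no stereotypy the highest in Hadha, whereas those of Cpt2, Acads and Hadhb do.

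The other straight-chain dehydrogenases were read beside Acadl to see whether the family shared its pattern. Acadm, the medium-chain dehydrogenase (ENSMUSG00000062908, chr3:153922357-153944632, minus strand), had 36.0, 28.8 and 34.4 CPM in stereotypy, 24.2, 23.7 and 27.6 CPM in no stereotypy and 27.0, 18.4 and 22.6 CPM in control libraries. The stereotypy libraries lay above all others, and the no stereotypy libraries overlapped the controls. Acadm was 0.38 higher in stereotypy than in no stereotypy libraries (log2 difference, SE 0.15, 95% interval 0.056 to 0.70), with an adjusted p of 0.115 in limma. Its log2 difference from control was 0.54 (SE 0.15) for stereotypy and 0.16 (SE 0.15) for no stereotypy.

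Acadvl, the very long-chain dehydrogenase of the inner mitochondrial membrane (ENSMUSG00000018574, chr11:70010183-70015411, minus strand), had 29.3, 24.0 and 23.3 CPM in stereotypy, 29.2, 29.2 and 27.9 CPM in no stereotypy and 23.5, 24.4 and 24.3 CPM in control libraries. The no stereotypy libraries lay above the controls, and the stereotypy libraries spread over both. The log2 difference between stereotypy and no stereotypy was -0.17 (95% interval -0.41 to 0.065, adjusted p = 0.305 in limma). Its exons share 1151 bases, 42.9% of their length, with Dvl2 on the opposite strand, and since the use of strand in counting is not given, the level of Acadvl is uncertain. Dvl2, a Wnt signalling adaptor, averaged 16.0 ± 0.974 CPM in stereotypy, 14.6 ± 0.832 CPM in no stereotypy and 11.4 ± 0.784 CPM in control libraries (SD, n = 3 each). Acads, the short-chain dehydrogenase (ENSMUSG00000029545, chr5:115110299-115119346, minus strand), had 0.252 to 1.01 CPM over the 9 libraries from 9 to 39 reads, its groups overlapped, and it did not pass the filter of at least 1 CPM in at least 3 libraries.

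Levels of different genes were compared per kilobase of exon. This length took in all annotated exons of a gene, so that the order of genes with similar values is uncertain. Acadl reached 6.74 CPM per kb in stereotypy, 4.46 in no stereotypy and 1.42 in control libraries, against 8.45, 6.43 and 5.79 CPM per kb for Acadm and 9.50, 10.7 and 8.96 CPM per kb for Acadvl in the same groups. Acadl made up 23.1%, 27.8% and 30.5% of the summed CPM per kb of the 4 dehydrogenases in stereotypy libraries, 22.2%, 19.2% and 19.8% in no stereotypy libraries and 8.60%, 10.5% and 6.94% in controls. The share therefore did not overlap between any of the groups, with means of 27.1 ± 3.74%, 20.4 ± 1.59% and 8.68 ± 1.78% in that order (SD, n = 3 each). A share within a library does not depend on how the libraries are scaled to each other. Its difference from control follows in part from the choice of Acadl, and the sum contains Acadvl, whose level is uncertain.

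**Figure D2:**
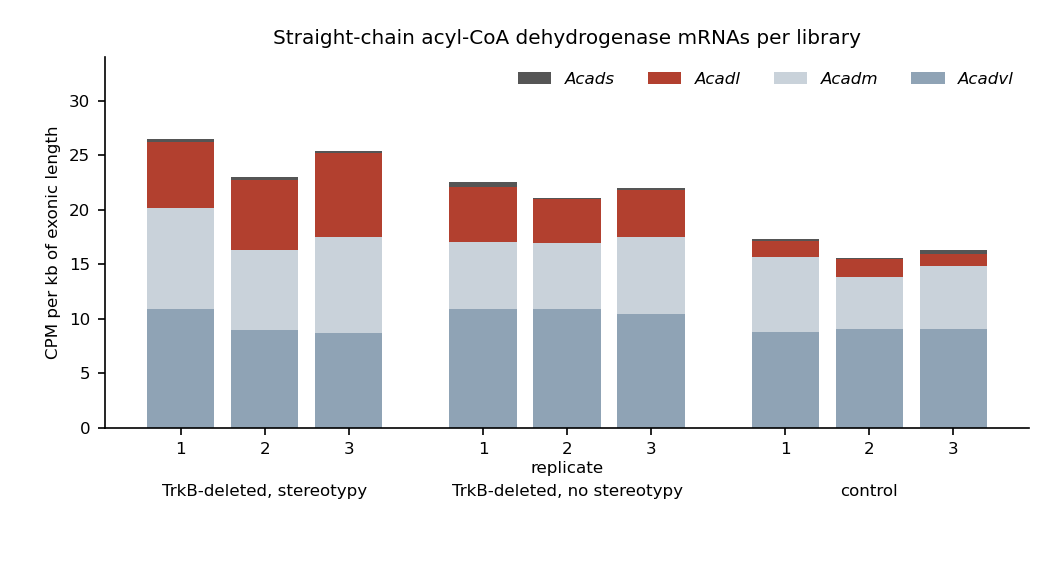
Stacked CPM per kb of exonic length of Acadvl, Acadm, Acadl and Acads (vertical axis) in each of the 9 libraries (horizontal axis, replicate number within group). The Acadl segment takes 23.1% to 30.5% of the bar in stereotypy, 19.2% to 22.2% in no stereotypy and 6.94% to 10.5% in control libraries.

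Of the genes of the carnitine shuttle, Cpt1a, the isoform whose inhibition by malonyl-CoA sets the rate of entry in liver and astrocytes, was low in every library. It had 1.50, 2.25 and 1.40 CPM in stereotypy, 1.24, 0.588 and 0.887 CPM in no stereotypy and 0.520, 0.396 and 0.644 CPM in control libraries, from 14 to 70 reads. The stereotypy libraries lay above all others, and no stereotypy overlapped control. The log2(CPM + 1) difference from control was 0.83 (SE 0.19) for stereotypy and 0.31 (SE 0.19) for no stereotypy, on a scale that understates low genes; edgeR on the recovered reads gave 1.67 and 0.76 in that order. Between stereotypy and no stereotypy libraries it was 0.51 (SE 0.19, 95% interval 0.09 to 0.94, adjusted p = 0.106 in limma). Outside stereotypy, only no stereotypy replicate 1 reached 1 CPM. Cpt1a thus passed the filter of at least 1 CPM in at least 3 libraries through its stereotypy libraries. It was tested because it was high there, and nothing is read from its tests. The astrocyte marker sums given for Acadl moved in the same direction here, and their part was not tested.

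Cpt1c, the neuronal isoform (ENSMUSG00000007783, chr7:44959372-44974851, minus strand), ran the other way. It had 86.4, 83.8 and 84.3 CPM in stereotypy, 96.3, 101 and 95.8 CPM in no stereotypy and 96.6, 94.4 and 105 CPM in control libraries. The stereotypy libraries lay below all others, and the no stereotypy libraries lay within the range of the controls. The log2 difference between stereotypy and no stereotypy was -0.20 (SE 0.078, 95% interval -0.37 to -0.028, adjusted p = 0.118 in limma). Its exons share 366 bases, 6.53% of their length, with the antisense gene 6530437J22Rik, whose reads could be counted with it. Per kilobase, Cpt1c stood at 15.1 CPM in stereotypy, 17.4 in no stereotypy and 17.6 in control libraries, against 0.225, 0.118 and 0.0680 CPM per kb for Cpt1a. Cpt1a thus made up 1.47 ± 0.402% of their sum in stereotypy, 0.679 ± 0.255% in no stereotypy and 0.383 ± 0.0715% in control libraries (SD, n = 3 each).

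Cpt2, the inner membrane transferase (ENSMUSG00000028607, chr4:107903981-107923610, minus strand), had 0.644, 0.803 and 0.258 CPM in stereotypy, 0.594, 0.784 and 0.665 CPM in no stereotypy and 0.438, 0.311 and 0.981 CPM in control libraries. Its groups overlapped on 7 to 32 reads a library, and it did not pass the filter. Cpt2 and Acads were therefore not tested.

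Hadha and Hadhb encode the alpha and beta subunits of the mitochondrial trifunctional protein, which carries the hydratase and hydroxyacyl-CoA dehydrogenase activities on the alpha and the thiolase on the beta subunit. Hadha had 50.7, 50.7 and 50.0 CPM in stereotypy, 54.4, 58.2 and 53.0 CPM in no stereotypy and 44.8, 40.8 and 43.5 CPM in control libraries. The 3 groups did not overlap, and no stereotypy was the highest, unlike in Acadl. The log2 difference from control was 0.23 (SE 0.085) for stereotypy and 0.35 (SE 0.085) for no stereotypy, and between stereotypy and no stereotypy it was -0.13 (95% interval -0.31 to 0.061, adjusted p = 0.340 in limma). Of its exonic bases 0.859% overlap Garem2 on the opposite strand.

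Hadhb had 2.94, 3.12 and 2.58 CPM in stereotypy, 2.30, 2.32 and 3.60 CPM in no stereotypy and 3.04, 1.56 and 2.67 CPM in control libraries, and all groups overlapped. Its log2 difference between stereotypy and no stereotypy was 0.068 (95% interval -0.39 to 0.52, adjusted p = 0.858 in limma), with a sign that turned when no stereotypy replicate 1 (-0.014) or 2 (-0.0087) was left out. Per kilobase of exon, Hadha exceeded Hadhb 11.1 to 19.8 times over the 9 libraries, although the gene starts are 86 bases apart. Exonic length took in all annotated exons of a gene, how reads were counted is not given, and Hadhb rested on 55 to 146 reads a library. The size of this ratio is therefore uncertain. The mean level of Hadha was 5.78 CPM per kb in stereotypy, 6.32 in no stereotypy and 4.93 in control libraries, and that of Hadhb was 0.436, 0.416 and 0.367 CPM per kb.

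Abcd2, which carries very long-chain and polyunsaturated acyl-CoA into peroxisomes, was the most abundant of the genes that did not overlap with control in either TrkB-deleted group, per kilobase of exon. It had 85.6, 96.4 and 80.3 CPM in stereotypy, 70.3, 77.8 and 70.1 CPM in no stereotypy and 44.4, 41.7 and 41.2 CPM in control libraries. The 3 groups were in the same order as for Acadl, with the lowest stereotypy library at 80.3 CPM against 77.8 CPM in the highest no stereotypy library. The mean of stereotypy was 2.06 times and that of no stereotypy 1.71 times that of control, and the log2 difference from control was 1.02 (SE 0.095) for stereotypy and 0.76 (SE 0.095) for no stereotypy. Between stereotypy and no stereotypy it was 0.26 (SE 0.095, 95% interval 0.052 to 0.47, adjusted p = 0.0976 in limma).

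Another peroxisomal transporter of the family gave Abcd2 a scale. Per kilobase, Abcd2 averaged 14.7 CPM in stereotypy, 12.2 in no stereotypy and 7.14 in control libraries. Abcd3, which transports dicarboxylic and branched acyl-CoA and bile acid precursors, averaged 12.3, 10.5 and 9.83 CPM per kb in the same groups. The mean of Abcd2 per kilobase was thus above that of Abcd3 in both TrkB-deleted groups and below it in control libraries. Exonic length took in all annotated exons of each gene, so that the order of Abcd2 and Abcd3 within a group is uncertain.

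Over the whole list, 8 of the 10 genes passed the filter on low levels. Between stereotypy and no stereotypy libraries, 0 of the 8 passed the threshold in limma, where 10.2% of all tested genes did, 6.61% higher and 3.60% lower. At an unadjusted p under 0.05 in limma there were 5 of the 8, where 29.9% of all tested genes were. With edgeR on the recovered reads 0 were called, where 9.75% of all tested genes were, and with DESeq2 1 was called, Acadl, where 17.1% were. Of the 5, Cpt1a, Acadl, Acadm and Abcd2 were higher in stereotypy and Cpt1c was lower. Cpt1a had passed the filter through its stereotypy libraries, so that its place among the 5 follows in part from the filter. The intervals of these 5 left out 0 before adjustment, and those of Acadvl, Hadha and Hadhb included it, which does not show that the groups are alike in these genes. The median log2 difference over the 8 was 0.16, beside 0.018 over all genes tested.

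Against control, the levels of Acadl and Abcd2 were the reason for the list, so that their calls were fixed by the choice and nothing is read from the counts that follow or from the shares of all genes beside them. In stereotypy libraries Acadl, Abcd2 and Cpt1a were past the threshold and higher, 3 of the 8, where 3.58% of all tested genes were. Cpt1a had passed the filter through these same libraries. In no stereotypy libraries Acadl, Abcd2 and Hadha were, 3 of the 8, where 3.76% of all tested genes were. For both TrkB-deleted groups together these were again Acadl, Abcd2 and Hadha, where 3.67% of all tested genes were. None of the 8 was called lower by limma in these comparisons, where 1.53%, 3.01% and 2.05% of all tested genes were in that order. These comparisons share the control libraries, and the values of each gene above are given side by side for that reason.

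**Figure D3:**
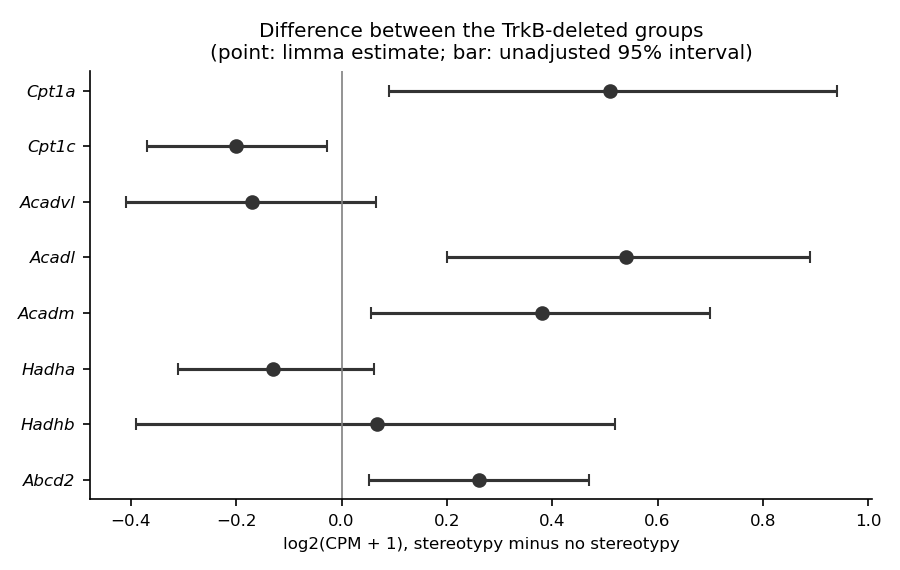
Difference in log2(CPM + 1) between stereotypy and no stereotypy libraries (horizontal axis, stereotypy minus no stereotypy) for the 8 tested genes, with the limma estimate as a point and its unadjusted 95% interval as a bar. The bars of Acadl (0.20 to 0.89), Cpt1a (0.09 to 0.94), Acadm (0.056 to 0.70) and Abcd2 (0.052 to 0.47) lie above 0. That of Cpt1c (-0.37 to -0.028) lies below 0, and those of Acadvl, Hadha and Hadhb cross it.

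Across the 9 libraries, the pattern of Acadl lay closest to that of Abcd2 among the listed genes, with a Pearson r of 0.96 in log2(CPM + 1), and then to Cpt1a at 0.81. It ran against that of Cpt1c at -0.74, and its r with Hadhb was 0.29. Acadl and Abcd2 were both chosen for being higher than in control, so that their likeness over these 9 libraries, which fall into 3 groups, follows in part from the choice, and the coefficients are a description. Among all tested protein-coding genes with a mean of at least 5 CPM, the 5 most like Acadl by that coefficient were Ust (0.966), Npy5r (0.963), Kctd8 (0.958), Krt77 (0.958) and Abcd2 (0.957). The 5 most like Abcd2 were Slco5a1 (0.975), Npy5r (0.974), Ceacam10 (0.968), Mak (0.968) and Plce1 (0.964). Npy5r, a neuropeptide Y receptor named for both, averaged 12.4 ± 0.687 CPM in stereotypy, 10.5 ± 1.28 CPM in no stereotypy and 5.27 ± 0.0650 CPM in control libraries (SD, n = 3 each).

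The rest of the pathway was read from 89 further genes in 8 lists, of which 71 passed the filter on low levels. Between stereotypy and no stereotypy libraries 3 of the 71 rose and 1 fell, and 67 did not pass the test in limma, beside the 10.2% of all tested genes called. In stereotypy against control 3 rose and none fell (5.10% of all tested genes called), in no stereotypy against control 1 rose and none fell (6.77%), and in both TrkB-deleted groups against control 2 rose and none fell (5.72%). The median log2 difference over the 71 was -0.068 between stereotypy and no stereotypy, 0.13 for stereotypy against control and 0.12 for no stereotypy against control, beside 0.018, 0.055 and 0.028 over all genes tested. The calls fell in the lists of uptake, carnitine and regulator genes. None of the 14 tested genes of the mitochondrial cycle, of the 16 of peroxisomal oxidation and of the 4 of ketone body metabolism passed the test in any comparison in limma, edgeR or DESeq2, and at an unadjusted p under 0.05 limma gave at most 3, 3 and 1 of them in that order, where it gave 20.4% to 29.9% of all tested genes in the 4 comparisons. Of the 4 branched-chain dehydrogenases and the 3 tested PPAR targets outside oxidation, limma and edgeR called 0, at most 2 and 1 of them had an unadjusted p under 0.05, and DESeq2, which called 17.1% of all tested genes there, called Acadsb higher and Cidea lower in stereotypy than in no stereotypy libraries. Against control, where limma called no pathway gene lower, edgeR called Acsl5 lower in stereotypy and in both groups together, and DESeq2 called 1 or 2 genes lower in each comparison. Over the tools and settings tried, the number of pathway genes called in a comparison ranged between 0 and 7.

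Among the acyl-CoA synthetases and fatty acid uptake genes, Acsbg1, which activates long and very long chains and is known from astrocytes and steroid-forming cells, passed the test in 3 of the 4 comparisons. It had 6.02, 6.81 and 5.65 CPM in stereotypy, 4.06, 3.36 and 3.33 CPM in no stereotypy and 2.79, 2.80 and 3.07 CPM in control libraries. The groups did not overlap. It rose by 0.64 on the log2 scale in stereotypy over no stereotypy (SE 0.14, adjusted p = 0.0260 in limma) and by 0.88 over control (adjusted p = 0.00934 in limma), and both TrkB-deleted groups together rose by 0.56 over control (adjusted p = 0.0261 in limma). The first call ended without stereotypy replicate 2 (0.0866) or 3 (0.0848) or no stereotypy replicate 1 (0.0775) or 2 (0.0860) and with no filter on low levels (0.0742), the second without stereotypy replicate 2 (0.0571), and the third without replicate 1 or 2 of any of the groups (0.0502 to 0.0820) and with no filter (0.106). Of the 12 astrocyte markers, 4 rose in stereotypy over no stereotypy libraries and 7 rose over control, with the sums given above, and their part in the result was not tested.

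The fatty acid transport proteins of the same list differed from each other. Slc27a4 had 98.1, 99.2 and 94.7 CPM in stereotypy, 145, 136 and 123 CPM in no stereotypy and 96.9, 123 and 118 CPM in control libraries. It fell by 0.46 on the log2 scale in stereotypy against no stereotypy libraries (adjusted p = 0.0275 in limma), whose values did not overlap, and the call ended without any 1 of the stereotypy replicates or without no stereotypy replicate 1 or 2 (0.0554 to 0.102) and with no filter on low levels (0.0523). Slc27a1 had 27.1, 22.5 and 22.2 CPM in stereotypy, 27.7, 22.6 and 22.5 CPM in no stereotypy and 16.1, 19.0 and 13.6 CPM in control libraries. Every TrkB-deleted library lay above every control, and it rose by 0.55 on the log2 scale for both groups together (adjusted p = 0.0309 in limma) and by 0.56 for no stereotypy (adjusted p = 0.0458 in limma). The call for no stereotypy ended without any 1 of the libraries except control replicate 2 (0.0542 to 0.189), under rescaling (0.0535), in edgeR (0.0599), with only the groups compared (0.0918) and with no filter (0.0966). That for both groups together ended without stereotypy replicate 1 or 2, no stereotypy replicate 1 or 2, or control replicate 1 or 3 (0.0502 to 0.0948) and with no filter (0.0749).

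Of the carnitine list, Slc22a5, the plasma membrane carnitine transporter, had 4.73, 3.70 and 3.36 CPM in stereotypy, 2.33, 2.35 and 1.55 CPM in no stereotypy and 1.78, 2.01 and 2.12 CPM in control libraries. The stereotypy libraries lay above all others, and no stereotypy overlapped control. It rose by 0.68 on the log2 scale over no stereotypy (adjusted p = 0.0361 in limma) and by 0.72 over control (adjusted p = 0.0392 in limma). The first call ended without any 1 of the 6 TrkB-deleted libraries (0.0782 to 0.0911) and with no filter on low levels (0.0954). The second ended without any 1 of the libraries except no stereotypy replicate 3 (0.0596 to 0.116), in edgeR (0.0574), with only the groups compared (0.0668) and with no filter (0.107). Between stereotypy and no stereotypy libraries the astrocyte, vascular and microglial marker sums given for Acadl moved in the same direction, and their part was not tested. Cpt1b, the muscle isoform of Cpt1, named here to complete the family and not by a rule, was at 0 in 8 libraries and at 0.0369 CPM in stereotypy replicate 3.

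Of the regulators, 2 passed the test in limma. Rxra, with a log2 difference of -0.36 between stereotypy and no stereotypy libraries, lay just above the threshold (adjusted p = 0.0509 in limma). Both edgeR and DESeq2 called Rxra lower there, and DESeq2 also called it lower in stereotypy than in control libraries. Ppargc1a, the coactivator that raises mitochondrial gene expression, had 46.0, 48.1 and 45.6 CPM in stereotypy, 35.0, 32.0 and 41.1 CPM in no stereotypy and 30.2, 26.2 and 38.4 CPM in control libraries. The stereotypy libraries lay above all others, and it rose by 0.56 on the log2 scale over control (adjusted p = 0.0448 in limma), a call that ended without any 1 of the stereotypy replicates, no stereotypy replicate 1 or 2, or control replicate 1 or 2 (0.0592 to 0.151), and under rescaling (0.0609), in edgeR (0.0637), with only the groups compared (0.0684) and with no filter (0.0886). Prkaa1, a catalytic subunit of the AMP-activated kinase and not itself a transcription factor, had 28.3, 30.4 and 31.5 CPM in stereotypy, 16.9, 17.7 and 23.0 CPM in no stereotypy and 26.3, 22.0 and 27.1 CPM in control libraries. It rose by 0.63 on the log2 scale in stereotypy over no stereotypy libraries (adjusted p = 0.0246 in limma), and neither TrkB-deleted group passed the test against control (adjusted p = 0.274 for stereotypy and 0.128 for no stereotypy in limma). The call of Prkaa1 ended without stereotypy replicate 2 or 3 or no stereotypy replicate 1 or 2 (0.0753 to 0.0939), and without no stereotypy replicate 3 it was called lower in no stereotypy libraries than in controls (0.0436).

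**Figure D4:**
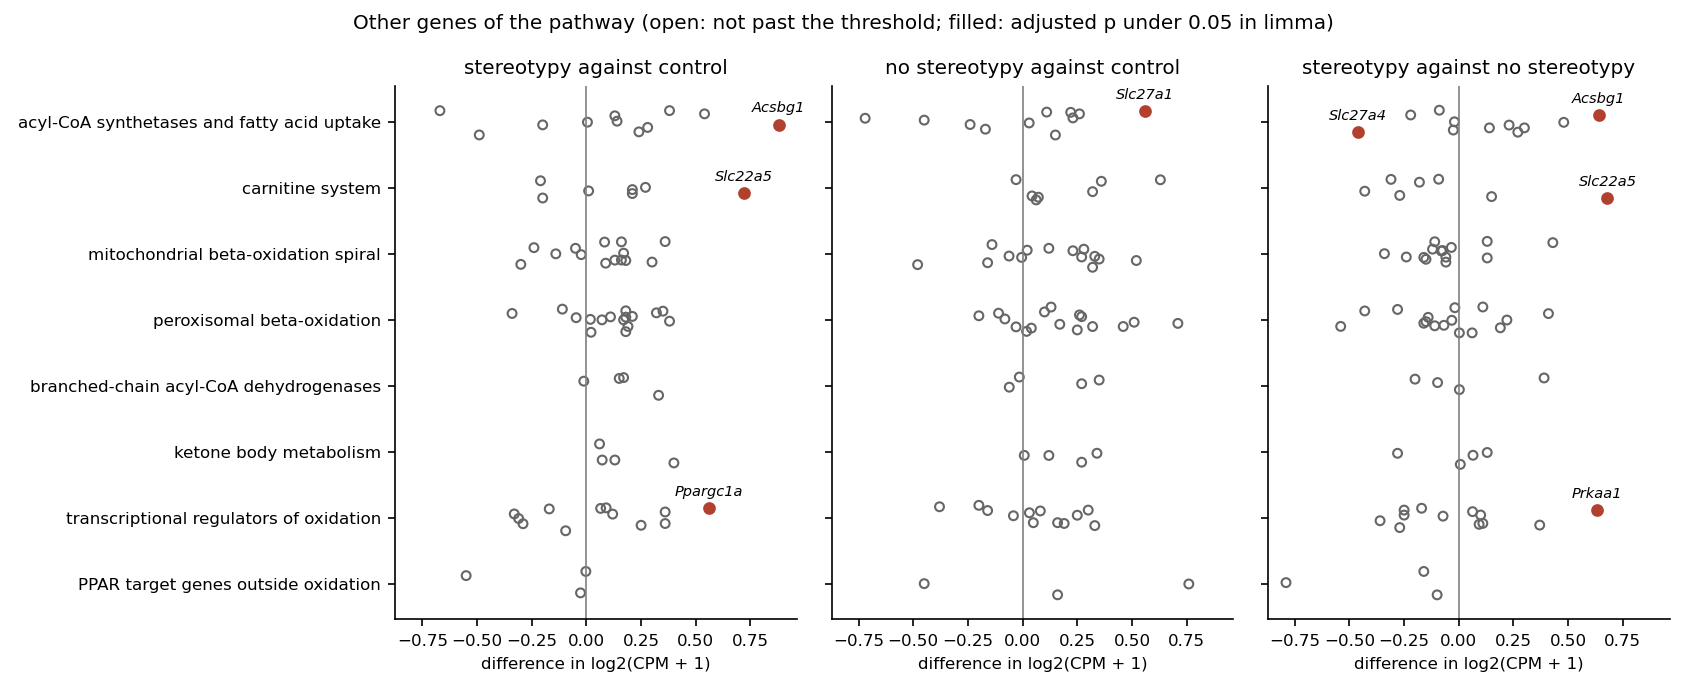
Difference in log2(CPM + 1) (horizontal axes) of the 71 tested pathway genes, 1 row of points per list, for stereotypy against control, no stereotypy against control and stereotypy against no stereotypy. Filled and named points passed an adjusted p of 0.05 in limma, and all of them lie above 0 except Slc27a4 at -0.46 between stereotypy and no stereotypy.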

How the data were processed

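Polyribosome-bound RNA of 9 libraries was analysed. The authors deposited 1 table of CPM for each library, with 47729 gene identifiers. TopHat alignment to GRCm38 is named in the submitters' processing notes, while how reads were counted, on which annotation and strand, is not given in the sources used here. Values were whole multiples of 1 read within a tolerance of 0.1 reads (100% in each library), so whole reads were recovered. Totals were 27103152 to 40578512 reads, and a count of 0 allows up to 0.0739 to 0.111 CPM (3 reads per library, counting error only). Symbols and exonic lengths came from GENCODE M21 on GRCm38, which matched 47310 identifiers (99.12%), the rest holding at most 0.0632% of reads.

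The 13695 genes that reached 1 CPM in 3 or more libraries entered 1 limma fit of log2(CPM + 1) over the 3 groups with a variance trend (limma 3.58.1, R 4.3.3), adjusted by Benjamini-Hochberg over all of them, with a threshold of 0.05. The fit was also run on simulated reads with the same dispersion for every gene, a simpler setting than these data, and nothing is read from it here. Alternatives were other pseudocounts (0.25 and 4) and filters (none, or a mean of at least 5 CPM), rescaling by the median of ratios, a replicate block, only the groups compared, each library left out, and edgeR 4.0.16 and DESeq2 1.42.0 on recovered reads. The genes, pathway lists and markers were chosen with earlier results of these data known. Pathway genes were named, up to 3 per list, direction and comparison, where they passed the threshold, and the 5 genes most like Acadl and Abcd2 by Pearson r.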

Additional observations from a re-analysis of the deposited data

Results flagged for a closer look

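Among the listed genes, the named pathway genes, Ntrk2 and the chromosome neighbours, the difference between the TrkB-deleted groups passed its test in limma for 6 genes. Their difference from control thus depended on the group. Of all tested genes 10.2% passed that test, and the pathway genes among the 6 were named because they passed a test. Acsbg1 was 0.64 higher in stereotypy than in no stereotypy libraries on the log2(CPM + 1) scale, Slc22a5 was 0.68 higher Prkaa1 was 0.63 higher and Kansl1l, the neighbour of Acadl, was 0.71 higher. Slc27a4 differed by -0.46, with stereotypy lower. Ntrk2, the deleted gene, differed by 1.05, with 34.3, 43.9 and 40.7 CPM in stereotypy and 23.4, 14.1 and 19.2 CPM in no stereotypy libraries (adjusted p = 0.0206 in limma). Its call ended without stereotypy replicate 2 or 3 or no stereotypy replicate 1 or 2, and the calls of the other genes also ended without single libraries, as given with each gene. In this comparison 4 of 12 astrocyte, 3 of 9 vascular and 2 of 8 microglial tested markers were also past the threshold and higher in stereotypy, and their part in these differences was not tested. None of the listed fatty acid oxidation genes passed that test in limma, while Acadl did in DESeq2. Groups of 3 libraries were not screened for outlying samples.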

How the results depend on the processing

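The sign of the difference between stereotypy and no stereotypy was kept for 7 of the 8 tested listed genes under every alternative; Hadhb turned to -0.014 and -0.0087 when no stereotypy replicate 1 or 2 was left out, and leaving out 1 library gave up to 0.23. Of these genes 1 was called, in place of 0, with a pseudocount of 4 CPM, a mean of at least 5 CPM, only the groups compared and DESeq2, and 0 to 1 with 1 library left out; the gene was Acadl. Among pathway genes, Slc27a4 in both TrkB-deleted groups against control turned to -0.022 under rescaling, -0.076 without control replicate 1, -0.027 in edgeR and -0.024 in DESeq2, and leaving out 1 library gave up to 0.093. Slc22a5 in no stereotypy against control turned to -0.019, -0.025 and -0.0039 without no stereotypy replicate 1, 2 and control replicate 1 (up to 0.17 without 1 library), and Slc27a1 between the TrkB-deleted groups to 0.02, 0.03 and 0.076 without stereotypy replicate 2, 3 and no stereotypy replicate 1 (down to -0.11 without 1 library). Kansl1l in no stereotypy against control turned to -0.029 and -0.089 without no stereotypy replicate 3 and control replicate 1 (up to 0.15 without 1 library), -0.0073 in edgeR and -0.001 in DESeq2. None of these was called; no cause was tested.

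Counts are given in the order stereotypy against no stereotypy, stereotypy against control, no stereotypy against control, both groups against control. Genes called were 1398, 699, 927 and 784. With no filter, which let more genes into the fit, they were 572, 330, 484 and 392, and the cause of that drop was not tested. In DESeq2 they were 2343, 1522, 1509 and 1326. With only the groups compared, 326 and 568 were called in stereotypy and no stereotypy against control. Leaving out 1 library gave 0 to 1982, 124 to 805, 317 to 935 and 403 to 732. Pathway genes called were 4, 3, 1 and 2; they were 7, 6, 3 and 4 in DESeq2, and 2, 1, 1 and 0 with no filter. With a mean of at least 5 CPM, 1 was called in stereotypy against control and 1 in both groups against control. With only the groups compared the first 3 were 7, 1 and 0. In no stereotypy against control, rescaling and edgeR gave 0. Leaving out 1 library gave 0 to 6, 0 to 4, 0 to 4 and 0 to 3.

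Replicate numbers were not taken to pair the libraries: deviations of same-numbered libraries correlated between -0.0798 and 0.406, not all above 0.1. With the replicate block, 1788, 917, 1099 and 880 genes and 7, 5, 4 and 6 pathway genes were called, and 0 of the listed genes between the TrkB-deleted groups. At 7 to 70 reads a library, Cpt1a, Cpt2 and Acads are limited by depth.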

Other observations

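The nearest tested neighbours of Acadl and Abcd2 on the chromosome were chosen by position. Kansl1l, 13277 bases from Acadl, averaged 3.85 ± 0.835 CPM in stereotypy, 1.96 ± 0.293 CPM in no stereotypy and 1.91 ± 0.471 CPM in control libraries (SD, n = 3 each). The stereotypy libraries lay above all others, and Kansl1l rose by 0.71 on the log2 scale over no stereotypy (SE 0.19, adjusted p = 0.0393 in limma) and by 0.74 over control (adjusted p = 0.0470 in limma), while the difference between no stereotypy and control was 0.029 (adjusted p = 0.951 in limma). The first call ended without any 1 of the 6 TrkB-deleted libraries (0.0520 to 0.141) and with no filter on low levels (0.101). The second ended without any 1 of the 9 libraries (0.0517 to 0.139), with a pseudocount of 0.25 CPM (0.0528), under rescaling (0.0617), with only the groups compared (0.0879), in edgeR (0.0703) and with no filter (0.119). Lancl1, 137240 bases away on the other side, averaged 265 ± 24.4, 268 ± 29.8 and 267 ± 26.3 CPM in the same order of groups. Kif21a, 95923 bases from Abcd2, averaged 279 ± 34.8 CPM in stereotypy, 243 ± 10.4 CPM in no stereotypy and 243 ± 47.3 CPM in control libraries. Slc2a13, 75897 bases away on the other side, averaged 207 ± 26.8, 159 ± 23.2 and 199 ± 21.2 CPM in the same order. Lancl1, Kif21a and Slc2a13 passed the test in no comparison; Slc2a13 came nearest, with a log2 difference of 0.38 in stereotypy against no stereotypy (adjusted p = 0.0884 in limma) and -0.33 in no stereotypy against control (adjusted p = 0.170 in limma), and neither pair of groups overlapped.

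Of the genes whose levels ran most like Abcd2, Ceacam10 averaged 9.34 ± 2.02 CPM in stereotypy, 7.74 ± 1.88 CPM in no stereotypy and 0.284 ± 0.136 CPM in control libraries, and Plce1, a phospholipase C, averaged 43.6 ± 8.48, 42.1 ± 4.99 and 7.33 ± 1.06 CPM in the same order (SD, n = 3 each). Of those most like Acadl, Ust, a uronyl sulfotransferase, averaged 71.7 ± 10.2 CPM in stereotypy, 65.6 ± 7.63 CPM in no stereotypy and 34.1 ± 2.89 CPM in control libraries.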
